A study of Homo sapiens with 4 samples.

Results

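The genes described here encode the CD34-family sialomucins (PODXL, PODXL2 and CD34), the mucin-like membrane protein endomucin (EMCN), and the ezrin, radixin and moesin (ERM) linkers EZR, RDX and MSN. They are 7 of the 35606 genes in the count table, found by gene symbol. They were chosen with the results of the comparison below already known, so their differences between groups are given as a description, with no p-values, and which of them passed the test over all genes is counted only beside the share of all genes that did. The comparison was between K562 cells expressing JAZF1-SUZ12 and mock K562 cells, with 2 RNA-seq libraries in each group, made from poly(A)-selected RNA. K562 is an established line from a chronic myelogenous leukaemia with erythroid features, and JAZF1-SUZ12 is a gene fusion known from endometrial stromal tumours, in which a part of JAZF1 is joined to the Polycomb protein SUZ12. How the fusion was delivered, which promoter drove it, what the mock cells received and whether a line was 1 clone are not given in the sources used here. No dose, time point or batch is labelled. The labels number the libraries of a group 1 and 2 and do not say whether these came from separate cultures, so the spread between them may be technical.

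Podocalyxin (PODXL), endoglycan (PODXL2) and CD34 are type I membrane proteins with a long extracellular part that carries dense O-linked, sialic acid-rich glycans, a single membrane span and a short cytoplasmic tail. Podocalyxin was first known from the foot processes of kidney podocytes and is also made by endothelium, blood progenitors and pluripotent cells, CD34 marks blood progenitors and endothelium, and endomucin is an endothelial sialomucin. The ERM proteins bind such tails with their N-terminal FERM domain, directly or through PDZ adaptors, and bind actin with their C-terminal end once a threonine near that end is phosphorylated.

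The ends of the coding sequences are shown first because they hold the part through which the sialomucins meet their cytoplasmic partners. Each line gives the last coding bases and the stop codon, and the capitals mark the last 4 codons before the stop, which in PODXL, PODXL2 and CD34 encode the C-terminal end that PDZ domains bind.
PODXL: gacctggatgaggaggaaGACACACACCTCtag
PODXL2: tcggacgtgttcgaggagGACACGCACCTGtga
CD34: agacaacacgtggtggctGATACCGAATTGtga
EMCN: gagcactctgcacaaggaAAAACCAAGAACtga
On GRCh38 with the GENCODE 29 annotation, these lie in the last coding exons at chr7:131504311-131504343 (minus strand), chr3:127672448-127672480 (plus strand), chr1:207887738-207887770 (minus strand) and chr4:100410321-100410353 (minus strand). PODXL and PODXL2 had the same base at 10 of the 12 capital positions. PODXL and CD34 shared 6 of 12, PODXL2 and CD34 shared 7, and EMCN shared 4 or 5 with each of the other three.

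The ERM genes are shown from the codon of the regulatory C-terminal threonine, which is in capitals, to the stop codon.
EZR: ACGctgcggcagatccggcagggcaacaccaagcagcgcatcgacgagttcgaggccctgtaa
RDX: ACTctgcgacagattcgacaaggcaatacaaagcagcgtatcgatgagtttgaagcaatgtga
MSN: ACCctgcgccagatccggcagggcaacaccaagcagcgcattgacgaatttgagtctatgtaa
These ends lie at chr6:158766914-158766976 (minus strand), chr11:110231869-110231931 (minus strand) and chrX:65739831-65739893 (plus strand) on GRCh38. EZR and MSN had the same base at 52 of the last 60 coding positions, EZR and RDX at 47, and RDX and MSN at 46. Over the whole coding sequence, 75.9% of aligned bases were identical between EZR and MSN, 71.1% between EZR and RDX and 72.4% between RDX and MSN. Because genes this alike could share reads, runs of 31 bases common to their transcripts were counted. EZR and MSN held 4 such 31-mers, which form 2 runs of 32 bases.
First shared run: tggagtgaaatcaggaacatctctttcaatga
Second shared run: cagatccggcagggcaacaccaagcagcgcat
The first begins at coding base 724 in both genes, and the other lies inside the ends printed above. No other pair among the 7 genes shared a 31-mer. The share of a gene's 31-mers found in any other annotated gene ran from 0% for PODXL2 and 0.420% for PODXL to 7.32% for RDX and 8.15% for MSN. The largest partner of MSN was the pseudogene MSNP1, which had 1 count in JAZF1-SUZ12 replicate 1 and 0 in the other three libraries. The exons of EZR overlap the antisense gene EZR-AS1, and whether the counting used strand is not given in the sources used here.

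The libraries held 17260936 and 24423028 estimated counts for JAZF1-SUZ12 and 20444636 and 21296732 for mock. As a check of the labels, JAZF1 had 12 and 27 counts in mock and 574 and 731 in JAZF1-SUZ12 libraries, although these do not tell the fusion from the endogenous gene. The source label gives uterus for every sample, so marker levels were examined. All 12 erythroid markers were above 3 counts in every library, and they summed to between 12736 and 13031 CPM (counts per 1000000 of the library) in mock and, in the JAZF1-SUZ12 libraries, to between 14749 and 14934 CPM. Of 8 stromal markers, LUM and COL3A1 were at 3 counts or fewer in each library. COL1A2 (39 to 114 counts) and COL6A3 (28 to 64 counts) were present in each. Of the 4 tested, only PDGFRB was called (edgeR, adjusted p = 0.0457). It had 19 and 4 counts in mock and 41 and 32 in JAZF1-SUZ12 libraries, and the authors' deposited table did not call it (adjusted p = 0.488). PDGFRA (5 and 6 counts in mock, 3 and 0 in JAZF1-SUZ12) and THY1 (5 and 6, then 1 and 4) were lower and were not tested. RNA from bulk cells was measured, so fewer cells of a type and less RNA per cell cannot be told apart.

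PODXL was the gene of the family with the widest gap between the groups on the log2 scale. PODXL (ENSG00000128567; chr7:131500262-131558217, minus strand) had 44 and 56 estimated counts in mock replicates 1 and 2 and 400 and 614 in JAZF1-SUZ12 replicates 1 and 2. Both JAZF1-SUZ12 libraries were far above both mock libraries, and the groups did not overlap. In CPM the 4 values were 2.15 and 2.63 in mock and 23.2 and 25.1 in JAZF1-SUZ12, or 2.39 ± 0.338 against 24.2 ± 1.39 (SD, n = 2 each). On the log2 scale the difference was 3.31 (standard error, SE, 0.15), which is 9.93-fold. SEs of the edgeR fits here are the size of the log2 fold change divided by the square root of the test's F statistic. With DESeq2, another tool for testing counts, run here, the SE for PODXL was 0.22. By counting error alone, the pooled ratio of CPM was 10.2 with a 95% interval of 8.26 to 12.6. The authors' deposited table gave a log2 fold change of 3.50 (SE 0.27). By size of the log2 fold change, PODXL stood at place 106 from the top among the 14750 genes tested.

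**Figure D1:**
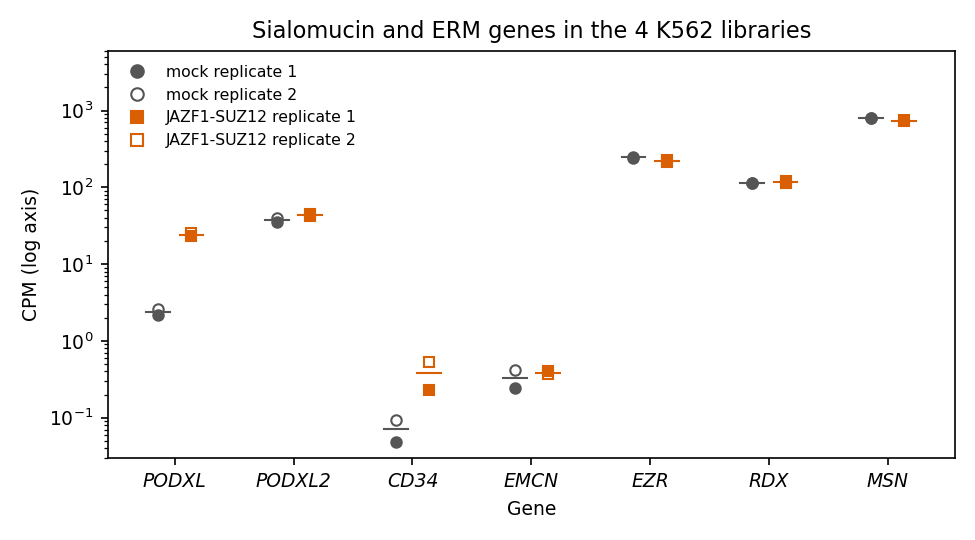
CPM (log axis) of the 7 genes in each library, with mock replicates as grey circles, JAZF1-SUZ12 replicates as orange squares and the group mean as a bar. PODXL lies at 2.15 and 2.63 CPM in mock and at 23.2 and 25.1 CPM in JAZF1-SUZ12 libraries, the 3 ERM genes lie between 113 and 802 CPM in every library, and CD34 and EMCN stay under 1 CPM.

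Of the 4 sialomucin genes, the other at a measurable level was PODXL2, whose coding end was the most like that of PODXL. PODXL2 (ENSG00000114631; chr3:127629181-127672809, plus strand) had 732 and 859 counts in mock and 777 and 1028 in JAZF1-SUZ12 libraries. In CPM these were 35.8 and 40.3 in mock and 45.0 and 42.1 in JAZF1-SUZ12, or 38.1 ± 3.20 against 43.6 ± 2.07 (SD, n = 2 each). The highest mock value lay just below the lowest JAZF1-SUZ12 value, a gap of 0.062 on the log2 scale, which is smaller than the distance between the mock replicates (0.17) or between the JAZF1-SUZ12 replicates (0.097). On the log2 scale the difference was 0.17 (SE 0.08), and the authors' deposited table gave 0.16 (SE 0.14). PODXL reads per PODXL2 read, a ratio free of library scaling, were 0.060 and 0.065 in mock and 0.515 and 0.597 in JAZF1-SUZ12 libraries. Both JAZF1-SUZ12 ratios were well above both mock ratios.

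CD34, the progenitor marker after which the family is named, was near the limit of detection. CD34 (ENSG00000174059; chr1:207880972-207911402, minus strand) had 1 and 2 counts in mock and 4 and 13 in JAZF1-SUZ12 libraries, or 0.049, 0.094, 0.232 and 0.532 CPM. Both JAZF1-SUZ12 values were above both mock values, and the mock values were at or under the floor of 3 counts per library. Pooled over replicates, 17 counts stood against 3, a ratio of CPM of 5.67 with a 95% counting interval of 1.64 to 30.2. The gene did not pass the filter on low counts, and a fit without that filter gave a log2 fold change of 2.32 (SE 1.29). In the authors' deposited table the value was 1.63 (SE 1.98). JAZF1-SUZ12 replicate 2 held 13 of the 17 counts.

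EMCN (ENSG00000164035; chr4:100395341-100880126, minus strand) had 5 and 9 counts in mock and 7 and 9 in JAZF1-SUZ12 libraries, or 0.245, 0.423, 0.406 and 0.369 CPM. The groups overlapped. The pooled ratio of CPM was 1.14 with a 95% counting interval of 0.523 to 2.53, so a difference of less than about that size was not detectable at this depth. EMCN did not pass the filter either, and its log2 fold change without the filter was 0.17 (SE 0.88). The authors' deposited table gave 0.72 (SE 1.35).

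The 3 ERM genes were abundant in every library and differed little between the groups. EZR (ENSG00000092820; chr6:158765741-158819412, minus strand), which encodes ezrin, the linker of epithelial microvilli, had 5076 and 5185 counts in mock and 3929 and 5192 in JAZF1-SUZ12 libraries. In CPM these were 248 and 243 against 228 and 213, and both JAZF1-SUZ12 values were below both mock values. The means were 246 ± 3.41 and 220.1 ± 10.6 CPM (SD, n = 2 each), which on the log2 scale is -0.18 (SE 0.05). RDX (ENSG00000137710; chr11:109864295-110296722, minus strand), the radixin gene, had 2349 and 2421 counts in mock and 1956 and 2978 in JAZF1-SUZ12 libraries. These were 115 and 114 CPM in the mock libraries against 113 and 122 CPM in the JAZF1-SUZ12 libraries. The groups overlapped, and the log2 fold change was 0.022 (SE 0.05). MSN (ENSG00000147065; chrX:65588377-65741931, plus strand) encodes moesin, the main ERM protein of blood cells. It had 16130 and 17075 counts in mock and 12795 and 17882 in JAZF1-SUZ12 libraries, or 789 and 802 CPM against 741 and 732 CPM. The MSN values did not overlap between groups, and its means were 795 ± 9.06 and 737 ± 6.43 CPM (SD, n = 2 each), which on the log2 scale is -0.13 (SE 0.04). For EZR, RDX and MSN the authors' deposited table gave log2 fold changes of -0.19, 0.058 and -0.14.

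**Figure D2:**
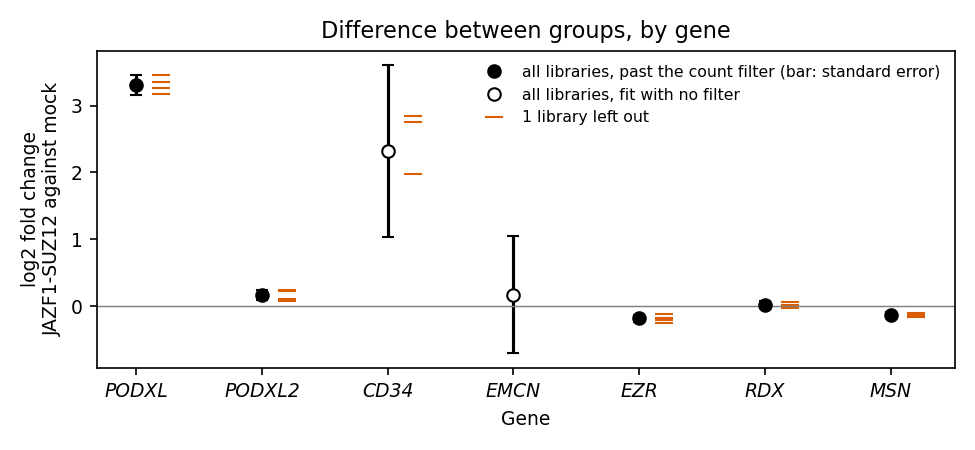
Log2 fold changes of the 7 genes, JAZF1-SUZ12 against mock. Bars are the standard errors derived from the F statistic, and orange marks are values with 1 library left out. PODXL lies between 3.17 and 3.46 whichever library is left out, PODXL2 and the 3 ERM genes lie within 0.25 of zero, and the open circles of CD34 and EMCN, from the fit with no filter, have standard errors of 1.29 and 0.88. CD34 has orange values only for the 3 such fits in which it passed the filter, and EMCN has none. Each of these 3 fits kept JAZF1-SUZ12 replicate 2, the library with 13 CD34 counts. They do not show the CD34 value without that library.

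Of the 7 genes, 5 passed the filter on low counts. In the edgeR quasi-likelihood test over all genes, with an adjusted p under 0.05 as the threshold, 3 of these 5 were called, where 24.7% of all 14750 genes tested were called. The calls were PODXL among the higher genes, which were 13.3% of those tested, and EZR and MSN among the lower genes, which were 11.4%. CPM values did not overlap between the groups for 4 of the 5, and for 61.0% of all genes tested. The median log2 fold change was 0.022 for the 5 and 0.0032 for all genes tested. The authors' deposited table called 8.50% of 15895 genes at the same threshold, and PODXL was the only one of the 7 among them. Since this contrast was used in choosing the genes, nothing further is read from these counts. Whether the ERM genes passed the threshold depended on single libraries. EZR did not pass the threshold without JAZF1-SUZ12 replicate 2 (log2 fold change -0.12) or without mock replicate 1 (-0.18). MSN did not pass it without JAZF1-SUZ12 replicate 2 (-0.11) or without mock replicate 2 (-0.13), and RDX changed sign to -0.021 without JAZF1-SUZ12 replicate 2.

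To set the genes beside each other, counts per kilobase of the longest annotated transcript per 1000000 counts were used. On this scale MSN had the highest level, 202 ± 2.30 in mock and 187 ± 1.63 in JAZF1-SUZ12 libraries (SD, n = 2 each). EZR followed with 79.4 ± 1.10 and 71.1 ± 3.43, RDX with 25.4 ± 0.191 and 26.1 ± 1.35, and PODXL2 with 17.4 ± 1.47 and 19.9 ± 0.946. PODXL was the fifth, with 0.387 ± 0.055 in mock and 3.92 ± 0.225 in JAZF1-SUZ12 libraries. EMCN, at 0.083 ± 0.031 and 0.096 ± 0.0065, and CD34, at 0.0087 ± 0.0039 and 0.046 ± 0.026, were the lowest. The order was the same in both groups, and neighbours in it were separated by more than their spread, with EMCN and CD34 resting on few counts. The order of PODXL and PODXL2 depended on the transcript length. With the median length of a gene's annotated transcripts, which is 803 bases for PODXL against 6170 bases for its longest, PODXL stood above PODXL2 in JAZF1-SUZ12 libraries, at 30.1 ± 1.73 against 19.9 ± 0.946. With the coding length it stood below, at 15.3 ± 0.881 against 24.0 ± 1.14.

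Among the 4 sialomucin genes, PODXL2 was the main transcript of the mock cells, and PODXL took a larger share in the JAZF1-SUZ12 libraries. SPN and CD164, sialomucin genes described below, were not in this set. Per kilobase of the longest transcript, PODXL2 made up 97.3% ± 0.270 of the summed level of the 4 sialomucin genes in mock and 83.1% ± 1.52 in JAZF1-SUZ12 libraries (SD, n = 2 each). PODXL made up 2.16% ± 0.118 and 16.3% ± 1.42. Per kilobase of coding length, PODXL made up 6.58% ± 0.310 and 38.2% ± 2.30. Per kilobase of median transcript length it made up 14.2% ± 0.592 and 59.3% ± 2.45, above the 39.3% ± 2.50 of PODXL2 in JAZF1-SUZ12 libraries. The summed level was 17.9 ± 1.56 in mock and 24.0 ± 0.701 in JAZF1-SUZ12 libraries by longest transcript, 23.0 ± 2.17 and 40.1 ± 0.107 by coding length, and 20.9 ± 2.09 and 50.7 ± 0.825 by median length. Among the 3 ERM genes the shares by longest transcript hardly differed between groups: MSN made up 65.8% ± 0.533 in mock and 65.8% ± 0.285 in JAZF1-SUZ12 libraries, EZR 25.9% ± 0.444 and 25.0% ± 0.882, and RDX 8.29% ± 0.090 and 9.21% ± 0.597. By median length MSN made up 90.9% ± 0.186 and 90.7% ± 0.057 and EZR 5.19% ± 0.120 and 4.998% ± 0.201. In raw counts, reads of the 3 ERM genes outnumbered those of the 4 sialomucin genes. The ratios were 30.1 and 26.7 to 1 in mock and 15.7 to 1 in both JAZF1-SUZ12 libraries. All these ratios use genes chosen on this contrast and carry no test.

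**Figure D3:**
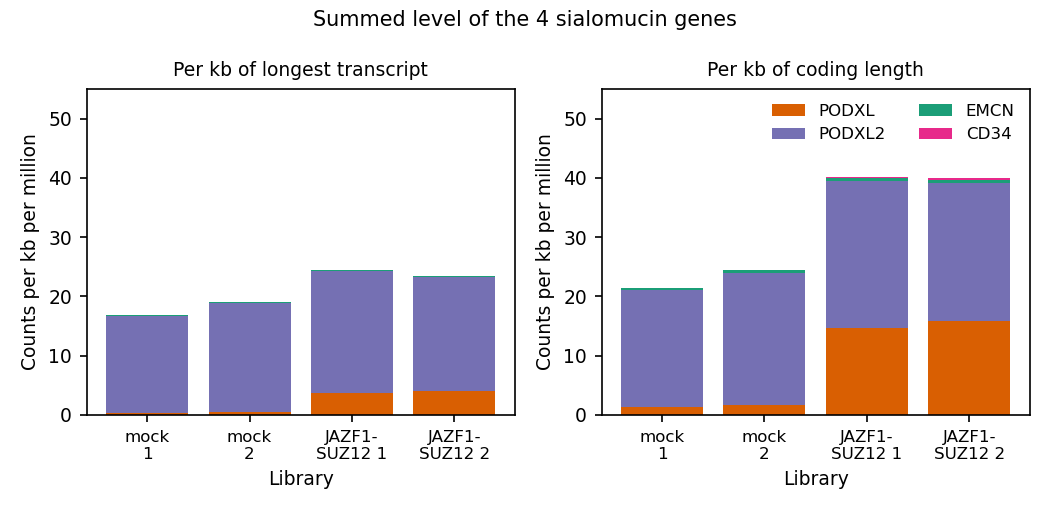
Stacked bars of counts per kilobase per 1000000 for PODXL, PODXL2, EMCN and CD34 in each of the 4 libraries, by longest transcript on the left and by coding length on the right. PODXL2 forms nearly all of the mock bars, and the PODXL segment is visible mainly in the JAZF1-SUZ12 bars, where it makes up 16.3% of the sum on the left and 38.2% on the right.

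The genes around this family were taken from lists written with earlier results of these data known, so their counts are descriptions and not independent evidence. Every call below is from the edgeR test adjusted over all genes tested, unless the authors' table is named. Among the genes listed as adaptors or possible partners of the sialomucin tails, 11 of 13 were tested, 3 rose and 1 fell. This is 36.4% called, where 24.7% of all genes tested were. The median log2 fold change was 0.062. The scaffold genes MAGI3 (log2 fold change 0.80, edgeR adjusted p = 0.000912) and MAGI1 (0.41, edgeR adjusted p = 0.00186) rose. CLIC1, of the family of chloride intracellular channels, fell from 1512 to 1257 CPM (edgeR, adjusted p = 9.55e-05). CRKL, an adaptor that binds the CD34 tail, rose from 563 to 631 CPM (edgeR, adjusted p = 0.0157), and that call was lost without either mock library. MPP1, a membrane scaffold of red cells and the most abundant of the genes not called, was at -0.0089 on the log2 scale (edgeR, adjusted p = 0.905), a sign that turned under 2 alternatives. The ERM-binding phosphoprotein genes SLC9A3R1 and SLC9A3R2, which link podocalyxin to ezrin, had log2 fold changes of 0.062 and 0.16 and did not pass the test (edgeR, adjusted p = 0.516 and 0.136); they were named after their values were seen. In the authors' deposited table, 1 of the 4 calls, CLIC1, also passed the threshold. There MAGI1 was at 0.018 (adjusted p = 0.983), MAGI3 at 0.56 (adjusted p = 0.276) and CRKL at 0.13 (adjusted p = 0.0921) on the log2 scale of the authors' deposited table.

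Among the regulators that activate or inactivate ERM proteins, all 24 genes were tested, 2 rose and 5 fell, with a median log2 fold change of -0.050. The share called, 29.2%, was near the 24.7% of all genes tested. None of the 24 differed 2-fold. The phosphatase subunit gene PPP2CA (-0.23, edgeR adjusted p = 0.00232) and the gene ARHGDIA (-0.21, edgeR adjusted p = 0.00565) fell. ARHGEF12, an activator of RhoA, rose (0.22, edgeR adjusted p = 0.00338), as did the phosphatase subunit gene PPP1CB (0.19, edgeR adjusted p = 0.0109). NF2, which encodes the ERM relative merlin, fell (-0.24, edgeR adjusted p = 0.0279). RHOA itself had 329 CPM in mock cells against 324 CPM in the fusion-expressing cells (edgeR, adjusted p = 0.529). The calls of PPP1CB and NF2 were lost without JAZF1-SUZ12 replicate 1 or mock replicate 1, and that of NF2 also without JAZF1-SUZ12 replicate 2, with DESeq2 (adjusted p = 0.159) and with total counts as the only scaling. Without mock replicate 1, the list had 4 calls in all. In the authors' deposited table, 2 of the 7 calls also passed, ARHGDIA and PPP1CB, whereas PPP2CA was at -0.14 (adjusted p = 0.355), ARHGEF12 at 0.19 (adjusted p = 0.0836) and NF2 at -0.19 (adjusted p = 0.582).

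Among the other membrane proteins that bind ERM linkers, 13 of 17 genes were tested, 4 rose and 4 fell, or 61.5% called beside 24.7% of all genes tested. The median log2 fold change was -0.068. CD44, the hyaluronan receptor, rose from 17.9 ± 0.144 to 39.8 ± 0.126 CPM (SD, n = 2 each), or by 1.13 on the log2 scale (edgeR, adjusted p = 7.74e-08). L1CAM, an adhesion molecule best known from neurons, rose from 2.45 to 10.02 CPM (log2 fold change 2.01, edgeR adjusted p = 1.93e-06). SDC2, a syndecan, had 5 and 10 counts in mock and 31 and 30 in JAZF1-SUZ12 libraries (log2 fold change 2.02, edgeR adjusted p = 0.0127), a call lost without JAZF1-SUZ12 replicate 1 or mock replicate 1. SDC2 passed the filter on low counts only through the JAZF1-SUZ12 libraries, so its call is not independent of the filter. SPN, the leukocyte sialomucin CD43, fell from 390 to 328 CPM (edgeR, adjusted p = 0.000415) and ICAM1 fell from 31.4 to 24.6 CPM (edgeR, adjusted p = 0.00303). ICAM3, the most abundant gene of the list that was not called, was at -0.068 on the log2 scale (edgeR, adjusted p = 0.631), with the opposite sign without JAZF1-SUZ12 replicate 2. Without JAZF1-SUZ12 replicate 1, and likewise without mock replicate 1, 5 genes of the list were called. In the authors' deposited table, 3 of the 8 calls also passed, CD44, L1CAM and SPN, whereas SDC2 was at 1.27 (adjusted p = 0.557) and ICAM1 at -0.41 (adjusted p = 0.0978).

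Among the other genes listed as mucin-type sialoglycoproteins, 15 of 20 were tested, 4 rose and 3 fell. The median log2 fold change was -0.030. The share called was 46.7%, beside 24.7% of all genes tested, and 6 of the 7 calls also passed in the authors' deposited table. CD24 rose from 8.73 to 20.3 CPM (edgeR, adjusted p = 3.63e-06), MUC4 from 8.53 to 19.1 CPM (edgeR, adjusted p = 5.73e-06) and MUC3A from 6.39 to 18.4 CPM (edgeR, adjusted p = 7.06e-06). CD24 and MUC3A have near-identical copies, so their counts are uncertain. CD68, a lysosomal mucin-like protein, fell from 39.3 to 25.1 CPM (edgeR, adjusted p = 1.12e-05). MCAM, an adhesion molecule that the list also counts, fell from 185 to 143 CPM (edgeR, adjusted p = 2.54e-05). SPN counts in this list as well. CD164, a sialomucin of progenitors, had 265 and 264 CPM and was not called (edgeR, adjusted p = 0.673). Of the selectins, which bind sialylated ligands on such proteins, SELE had 2 counts in 1 JAZF1-SUZ12 library and 0 elsewhere, and SELP had 0 counts in every library.

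Among the enzymes of mucin O-glycans, sialic acid and selectin ligands, 35 of 43 genes were tested, 5 rose and 2 fell, with a median log2 fold change of -0.016. The list had 20.0% called, below the 24.7% of all genes tested, and 4 genes were called without mock replicate 1 or without mock replicate 2. ST3GAL1, which adds sialic acid to the core of O-glycans, rose from 10.1 to 18.8 CPM (log2 fold change 0.87, edgeR adjusted p = 5.44e-05). The sialidase gene NEU3 fell from 67.1 to 54.4 CPM (edgeR, adjusted p = 0.00125), and CHST2, a sulfotransferase of selectin ligands, fell from 195 to 166 CPM (edgeR, adjusted p = 0.00479). GALNT6, which starts O-glycans, rose (0.44, edgeR adjusted p = 0.0149), and so did the sialyltransferase gene ST6GAL1 (0.16, edgeR adjusted p = 0.0161). The call of GALNT6 was lost with DESeq2 and without JAZF1-SUZ12 replicate 1 or mock replicate 1, and that of ST6GAL1 without either mock library. GALNT5, the most abundant enzyme gene not called, had 259 and 246 CPM (edgeR, adjusted p = 0.119). GCNT1 had 9 and 5 counts in mock and 23 and 28 in JAZF1-SUZ12 libraries (log2 fold change 1.84, edgeR adjusted p = 0.0248). It passed the filter on low counts only through the JAZF1-SUZ12 libraries, so its call is not independent of the filter. GALNT10 was at 0.18 on the log2 scale (edgeR, adjusted p = 0.0262). Both were named after their values were seen. In the authors' deposited table, 3 of the 7 calls also passed: CHST2, GCNT1 (3.02, adjusted p = 0.0203) and GALNT10 (0.35, adjusted p = 0.0230). There ST3GAL1 was at 0.26 (adjusted p = 0.647), NEU3 at -0.24 (adjusted p = 0.224), GALNT6 at 0.47 (adjusted p = 0.229) and ST6GAL1 at 0.12 (adjusted p = 0.282) in the authors' deposited table.

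**Figure D4:**
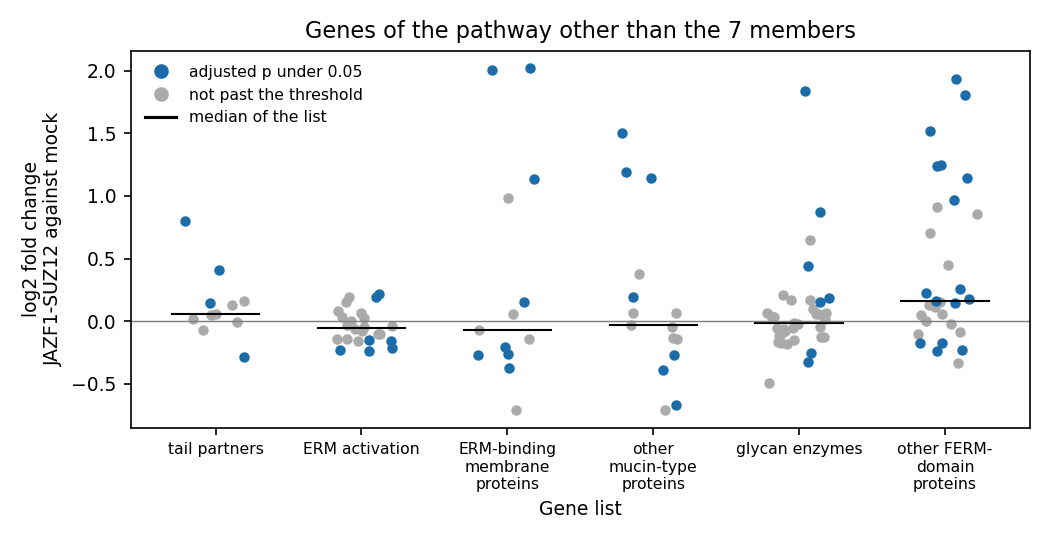
Log2 fold change of each tested gene in 6 lists of related genes, with calls at an adjusted p under 0.05 in blue, other genes in grey and the list's median as a bar. The medians of the first 5 lists lie within 0.1 of zero, calls lie on both sides in every list, and the highest values are those of SDC2 (2.02) and L1CAM (2.01) among the ERM-binding membrane proteins and of FERMT2 (1.94) among the FERM-domain proteins.

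Genes with a pattern like that of PODXL were ranked by the distance between log2(CPM + 0.1) values centred on each gene's mean, over the 4 libraries and 11624 genes that averaged 50 counts or more. The nearest were IGF2 (distance 0.067), from 0.765 to 7.98 CPM, CKAP4 (0.128), from 0.526 to 6.47 CPM, and TSPAN18 (0.232), from 0.765 to 7.41 CPM. On the log2 scale their differences were 3.35, 3.58 and 3.25, and the authors' deposited table gave 2.26, 3.54 and 2.14. With 4 libraries in 2 groups, this likeness mostly repeats the difference between groups. The nearest genes tested on either side of PODXL on chromosome 7 were not called. MKLN1, 3626 bases away, had 108 CPM in mock cells against 107 CPM in the fusion-expressing cells (edgeR, adjusted p = 0.639). CHCHD3, 1226651 bases away on the other side, was at -0.087 on the log2 scale (edgeR, adjusted p = 0.225). Any nearer gene that did not pass the filter on low counts was not examined.

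Markers of the other cell types known for these genes were set beside the PODXL and CD34 differences. The 10 podocyte markers summed to 219 to 222 CPM in mock cells and to 214 to 218 CPM in fusion-expressing cells. Most of that sum was CD2AP (162 and 153 CPM) and WT1, which fell from 48.7 to 36.5 CPM, while KIRREL1 rose from 5.38 to 19.2 CPM. The 12 endothelial markers summed to between 198 and 211 CPM and between 233 and 254 CPM. EGFL7, which made up most of that sum, rose from 184 to 217 CPM (edgeR, adjusted p = 0.00448), and TIE1 rose as well (edgeR, adjusted p = 0.0351). The authors' deposited table called neither EGFL7 nor TIE1 (adjusted p = 0.269 and 0.168). Of the tested endothelial markers not called, PECAM1 and ESAM were at 0.33 and 0.41 on the log2 scale. CLDN5 and MMRN2 were at -0.89 and -0.20. KDR, TEK and ERG had at most 3 counts in every library. The 12 progenitor markers summed to 237 to 242 CPM in mock cells and to 231 to 232 CPM in fusion-expressing cells. GATA2 made up most of it (178 and 168 CPM), and 6 of the 12, among them FLT3 and SPINK2, had at most 3 counts in every library. KIT rose (edgeR, adjusted p = 0.000825). HLF, with 4 and 3 counts in mock and 15 and 20 in JAZF1-SUZ12 libraries, rose too (edgeR, adjusted p = 0.0226). It passed the filter on low counts only through the JAZF1-SUZ12 libraries, so that call is not independent of the filter. The authors' deposited table called neither KIT nor HLF (adjusted p = 0.0588 and 0.703). MECOM was at -0.17 on the log2 scale (edgeR, adjusted p = 0.114), and no progenitor marker was called lower. Among the 10 pluripotency markers, which summed to between 3.99 and 4.06 CPM and between 4.46 and 5.79 CPM, none was called. The part of the erythroid and endothelial sums in the PODXL and CD34 differences was not tested.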

How the data were processed

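Poly(A)-selected, directional libraries of K562 RNA were sequenced, per the labels' protocols. The submitters' processing notes name fastp 0.20.1, kallisto 0.46.2, DESeq2 1.30.1 and hg38. The annotation is not given in the sources used here. The authors deposited estimated counts per gene, of which between 29.9% and 33.6% in a library were not whole within 1e-06. These were rounded. The authors' deposited table holds a mean signal, a log2 fold change with its standard error, a test score and p-values per gene, per the file headers. For some genes, DESeq2 run here on the rounded counts gave other log2 fold changes than that table. MAGI1 was at 0.41 here and 0.018 there, ST3GAL1 at 0.87 and 0.26, and IGF2 at 3.36 and 2.26, while PODXL was at 3.31 and 3.50. The authors' calls can thus differ by the estimate and not only by the test. The cause was not tested.

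Genes were filtered with filterByExpr, scaled with TMM and tested with edgeR 4.0.16 (R 4.3.3, quasi-likelihood F test, group only), two-sided, with Benjamini-Hochberg adjustment over 14750 genes. The SE of a log2 fold change was derived from the F statistic. The SEs of the authors' deposited table came from another fit and are not the same measure. The edgeR fit was tested on simulated data. CPM is the rounded count per 1000000 counts of the library. Counting intervals are exact, from pooled counts, and cover counting error only. Positions, lengths and sequences come from GRCh38 with GENCODE 29, which matched 35410 gene IDs. Coding ends are those of the lowest-numbered GENCODE transcript name of each gene.

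The members and lists were chosen with earlier results of these data known. From each list, the text names up to 5 called genes with the smallest p and the most abundant gene not called, and, for PODXL, the 3 nearest patterns. The alternatives were other scalings, tools, filters and lengths, a replicate block, and leaving out each library. Some genes of the lists are not reported here.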

Additional observations from a re-analysis of the deposited data

How the results depend on the processing

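Only 2 libraries per group were available, so leaving out a library leaves 1 sample in a group, which edgeR assumes to vary like the others. DESeq2 called 2407 genes, 1051 of them lower, and 4 glycan enzymes and 8 FERM-domain genes. Leaving out each library gave 1070 to 1941 lower genes, 4 to 6 ERM regulators, 5 to 7 ERM-binding membrane proteins, 4 to 6 glycan enzymes and 7 to 12 FERM-domain genes. It gave log2 fold changes of -0.25 to -0.12 for EZR, -0.16 to -0.11 for MSN and -0.021 to 0.055 for RDX. PODXL lay between 3.17 and 3.46 under every alternative run. Signs turned for MPP1 (0.013 with total counts only, 0.015 with a mean of at least 50 counts), TLN1 (0.0013 with that filter) and ICAM3 (-0.18 to 0.048 on leaving out a library), where no value passed the test. The cause was not tested.

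Levels per kilobase moved with the length used. With the median transcript length they were 2.98 in mock and 30.1 in JAZF1-SUZ12 libraries for PODXL, 0.026 and 0.141 for CD34, 0.502 and 0.582 for EMCN, 61.4 and 63.2 for RDX, 1437 and 1331 for MSN, and 81.9 in mock for EZR. With the coding length, added after seeing the data, they were 1.52 and 15.3 for PODXL, 21.0 and 24.0 for PODXL2, 0.062 and 0.331 for CD34, 0.426 and 0.494 for EMCN, 139.9 and 125 for EZR, 65.3 and 67.3 for RDX, and 459 and 426 for MSN. A level by protein length was not run.

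With the replicate block, 4061 genes were called and no call of a member changed. Same-numbered libraries did not deviate together (r = -0.00072 over 14750 genes), so the numbers were not taken as pairs.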

Other observations

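Outside the ERM proteins, other proteins with a FERM domain, the module with which ERM linkers hold membrane tails, were examined as a group. Of 34 such genes, 30 were tested, 12 rose and 4 fell, and the median log2 fold change was 0.16. FERMT2, the integrin activator kindlin-2, rose from 1.97 to 7.68 CPM (log2 fold change 1.94, edgeR adjusted p = 1.67e-05). EPB41L1, a brain member of the band 4.1 family, rose from 6.55 to 15.7 CPM (edgeR, adjusted p = 9.8e-06). EPB41L4B rose from 1.20 to 4.30 CPM (edgeR, adjusted p = 0.000488), EPB41L4A from 3.91 to 7.80 CPM (edgeR, adjusted p = 0.00148) and the exchange factor gene FARP1 from 2.05 to 6.02 CPM (edgeR, adjusted p = 0.000705). TLN1, which encodes talin and was the most abundant gene of the group, was at 865 CPM in both groups (edgeR, adjusted p = 0.743), and the sign of its small difference turned under another filter on low counts. The list was written with earlier results of these data known. It had 53.3% called beside 24.7% of all genes tested, 6 of the 16 calls also passed in the authors' deposited table, and 7 genes were called without JAZF1-SUZ12 replicate 2 and 8 without mock replicate 1.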
